A study of Mus musculus with 2 samples.

Results

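Wnt signaling in the embryonic mouse eye was followed here through 10 genes: the ligands *Wnt2b* and *Wnt5a*, the receptor *Fzd5*, the secreted inhibitors *Sfrp1*, *Sfrp2*, *Dkk2* and *Dkk3*, and the genes *Axin2*, *Lef1* and *Lgr5*, which are read out as targets or effectors of the pathway. The genes were chosen by name, and all 10 were found among the 31053 genes counted. They were measured by single cell RNA sequencing of total eye cup cells from mouse embryos at e13.5. The control library held 3 pooled *Myrf* fl/fl samples, whose *Myrf* alleles are floxed but intact. The mutant library held 3 pooled *Rx>cre Myrf* fl/fl samples, with the same floxed alleles and an *Rx* driven Cre recombinase that acts in the early eye field, from which the neural retina and the retinal pigment epithelium (RPE) both arise. Cornea, lens and optic nerve had been dissected away before the cells were dissociated. *Myrf* encodes a membrane bound transcription factor best known for its role in myelination. Because each library pooled 3 samples, the variation between embryos was not measured.

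Wnt ligands are secreted proteins that bind Frizzled (FZD) receptors and the co-receptors LRP5 and LRP6. In the canonical branch this keeps ß-catenin from being degraded, and ß-catenin then acts with LEF and TCF factors at target genes such as *Axin2*. WNT5A is known mainly for branches that do not use ß-catenin. Secreted Frizzled-related proteins (SFRP) bind Wnt ligands, DKK2 binds the LRP co-receptors, and DKK3 is a divergent relative of the DKK family without a settled role in the pathway. In the eye, canonical Wnt signaling is known for its part in keeping RPE fate and in forming the dorsal and peripheral optic cup, and it also acts in the neural crest derived mesenchyme around the eye.

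The genes lie on 7 chromosomes of the mouse assembly GRCm38, the same assembly as mm10. *Sfrp2* (chr3:83766321-83774316, plus strand), *Wnt2b* (chr3:104945272-104961921, minus strand), *Lef1* (chr3:131110471-131224356, plus strand) and *Dkk2* (chr3:132085292-132180304, plus strand) share chromosome 3. *Fzd5* lies at chr1:64730558-64737751 and *Dkk3* at chr7:112116017-112159057, both on the minus strand. *Sfrp1* lies at chr8:23411502-23449632, *Axin2* at chr11:108920349-108950783 and *Wnt5a* at chr14:28504750-28527448, all on the plus strand, and *Lgr5* at chr10:115450311-115587780 on the minus strand. The counts are unique molecular identifiers (UMI), each standing for 1 captured transcript read near its polyadenylated end, so they are counts of whole genes and not of exons or isoforms.

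The libraries held 6039 and 6754 barcodes and 63483835 and 75228861 UMIs, control first. After filtering, 5451 control and 6309 mutant cells were kept, of which 67 pairs shared a barcode sequence between the libraries. Clustering made without the Wnt pathway genes gave 28 clusters, most of which were placed in 19 classes from cell type markers or leading genes. The 5 others, with 27.4% of control and 21.9% of mutant cells, were mostly shallow and stayed unnamed. The classes centred on here were RPE-like (255 control and 152 mutant cells), retinal progenitor-like (866 and 960) and 3 kinds of periocular mesenchyme, named after their markers *Tfap2b* (478 and 629), *Aldh1a2*, *Six2* and *Foxf2* (235 and 288) and the tendon genes *Scx* and *Meox1* (179 and 316). No cluster stood out as ciliary margin, where Wnt signaling is strong, so those cells were not seen apart. In RPE-like cells 8 of the 10 RPE markers had UMIs in both libraries, with *Rgr* and *Slc6a20a* at 0, and *Pax3*, which marks melanoblasts of the neural crest, was also at 0. *Myrf* itself stood at 74.6 CPM (95% interval 63.3 to 87.3) in control and 20.1 CPM (13.6 to 28.7) in mutant RPE-like cells. Counts near the transcript end do not show whether the floxed exons themselves were read.

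Levels are given in CPM, the UMIs of a gene per 1000000 UMIs of a class in a library. Each genotype was 1 library without a replicate, so differences between the libraries were not tested and are given without p-values. Counting error alone, and not the differences between embryos or library preparations, is covered by the 95% intervals. They are exact Poisson for a level and exact binomial for a share of cells or a ratio of both libraries. For a level or a ratio they also leave out the spread of UMIs between cells. Ratios are log2 of mutant over control CPM with 1 UMI added to each sum, and were compared where a gene had at least 20 UMIs over both libraries in a class. A ratio is called past the fold at 1.5-fold or more.

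*Sfrp2*, *Fzd5* and *Dkk3* were highest in retinal progenitor-like cells, *Sfrp1* in RPE-like cells, *Dkk2*, *Axin2*, *Lef1* and *Wnt5a* in mesenchyme, and *Wnt2b* stayed at or below 2.92 CPM in every class. The class of the highest level was the same in both libraries for 8 of the 10 genes, *Wnt5a* and *Lgr5* being the exceptions. For 5 of the 10 genes the interval of that class lay apart from the interval of the next class in both libraries.

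**Figure D1:**
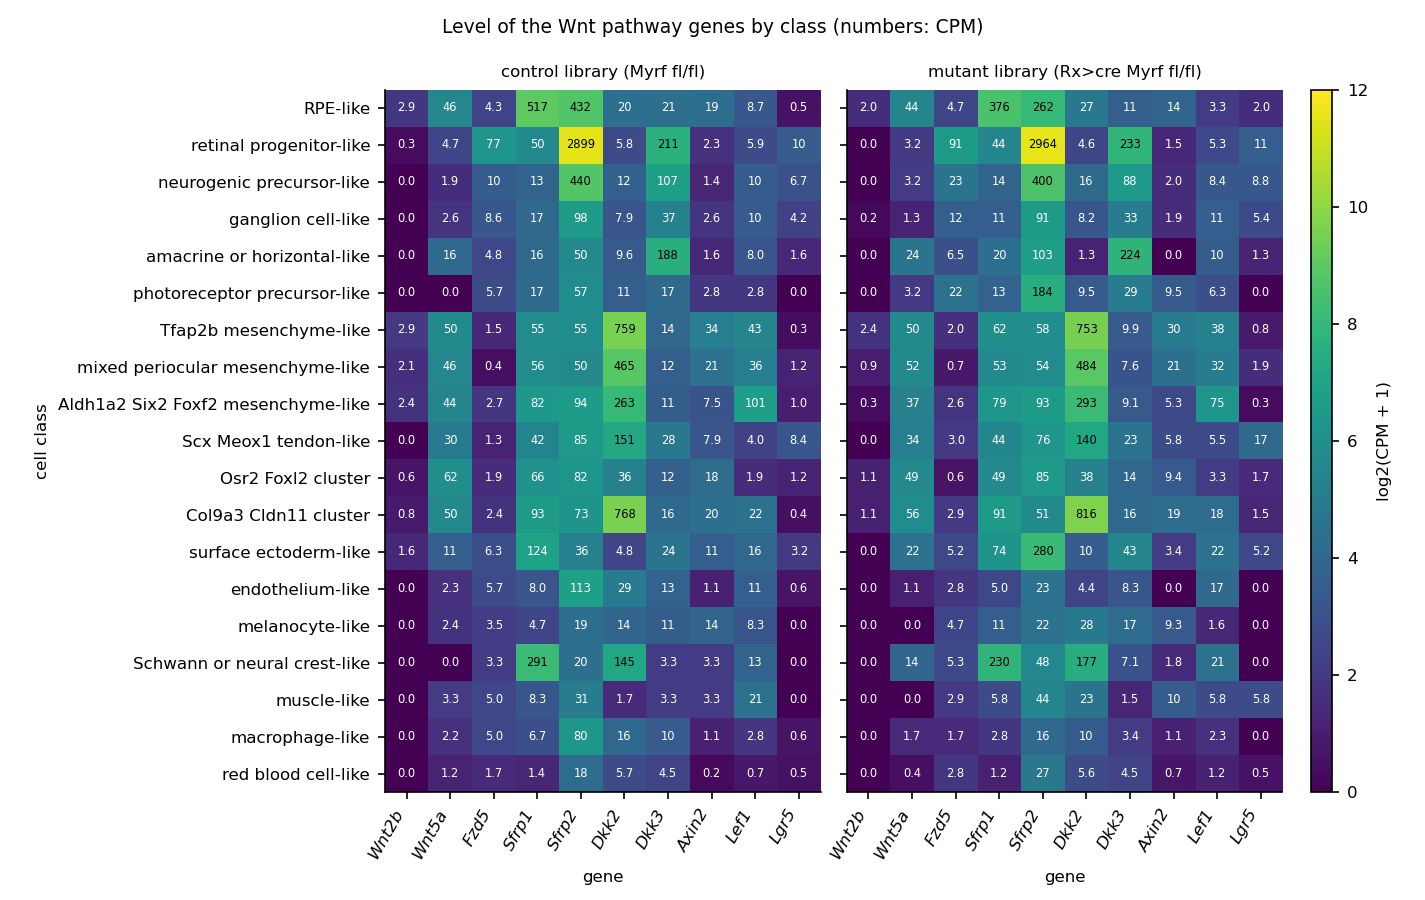
Levels of the 10 genes in 19 cell classes (rows) of the control library (left) and the mutant library (right), as CPM printed in each cell and as log2(CPM + 1) in color. The highest value is that of *Sfrp2* in retinal progenitor-like cells, at 2899 CPM in control and 2964 CPM in mutant, and the pattern over classes is much the same in both libraries.

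Of the ligands, *Wnt5a* was broadly expressed in the mesenchyme. In the control library it stood at 62.0 CPM (50.4 to 75.4) in a mesenchymal cluster led by *Osr2* and *Foxl2*, 50.3 CPM (45.0 to 56.0) in *Tfap2b* mesenchyme-like cells and 49.9 CPM (41.6 to 59.5) in a cluster led by *Col9a3* and *Cldn11*. In the mutant library the same classes stood at 48.9 (39.2 to 60.2), 50.4 (45.7 to 55.5) and 56.4 CPM (47.8 to 66.1). The intervals of these neighbours overlap in both libraries, so no order can be read among them. RPE-like cells had *Wnt5a* in the same range, at 45.7 CPM (37.0 to 55.9) in control and 43.5 CPM (33.6 to 55.5) in mutant, while retinal progenitor-like cells were lower, at 4.68 CPM (3.67 to 5.88) and 3.17 CPM (2.35 to 4.19). Red blood cell-like cells, taken here as a class that should not express *Wnt5a*, had 1.18 CPM (0.384 to 2.76) and 0.389 CPM (0.106 to 0.997).

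*Wnt2b*, a ligand known to act in the ciliary margin and RPE, was the rarest of the 10 genes, with 53 UMIs among all kept control cells and 36 among mutant cells. *Tfap2b* mesenchyme-like cells held 19 and 20 of these UMIs, at 2.92 CPM (1.76 to 4.56) and 2.39 CPM (1.46 to 3.69). RPE-like cells held 6 control and 3 mutant UMIs, at 2.89 CPM (1.06 to 6.28) and 2.01 CPM (0.414 to 5.87). These intervals overlap, and the count minimum for a ratio was reached only in *Tfap2b* mesenchyme-like cells, where the log2 ratio was -0.29 (-1.27 to 0.70). A change of *Wnt2b* in RPE-like cells was not detectable at this depth.

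Other Wnt ligands were richer elsewhere. The surface ectoderm-like cells (58 control and 63 mutant), the epithelium that covers the eye, held *Wnt4* at 681 CPM in control and 748 CPM in mutant and *Wnt6* at 622 and 649 CPM. *Wnt2* stood at 108 and 177 CPM and *Wnt10a* at 93.4 and 118 CPM in the same cells. *Wnt5b*, the ligand other than the listed ones with the most UMIs over all kept cells (2170), was spread more evenly, at 24.4 and 21.4 CPM in retinal progenitor-like and 12.99 and 14.7 CPM in RPE-like cells. *Wnt1* had no UMI in any kept cell. The membrane protein WLS carries Wnt ligands to the cell surface. *Wls* stood at 127 and 129 CPM in surface ectoderm-like cells and at 122 CPM in RPE-like cells of either library. Tendon-like cells had 113 and 119 CPM of it, against 1.99 and 0.971 CPM in retinal progenitor-like cells.

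The receptor gene *Fzd5* marked the neural retina. Retinal progenitor-like cells held 79.0% of its UMIs in control and 78.3% in mutant. Its level there was 77.1 CPM (72.8 to 81.6) in control and 91.3 CPM (86.6 to 96.2) in mutant, a log2 ratio of 0.24 (0.13 to 0.36), which is short of 1.5-fold. A UMI of *Fzd5* was found in 70.7% (67.5 to 73.7) of control and 69.2% (66.1 to 72.1) of mutant retinal progenitor-like cells, against 3.33% and 4.29% of red blood cell-like cells. The median depths were 17122 and 15044 UMIs per cell in the progenitors and 22427 and 22706 in the red blood cells. The next class in order was that of neurogenic precursor-like cells, which leave the progenitor pool to become neurons, at 10.1 CPM (6.27 to 15.5) in control and 23.3 CPM (17.7 to 30.1) in mutant. The difference there was past the fold, with a log2 ratio of 1.16 (0.46 to 2.00) from 21 and 58 UMIs, and it ranged from 0.76 to 1.29 over the alternatives tried. *Fzd5* in RPE-like cells rested on 9 and 7 UMIs, at 4.33 CPM (1.98 to 8.22) and 4.69 CPM (1.88 to 9.66).

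Among the inhibitors, *Sfrp2* was by far the most abundant in the retina. Retinal progenitor-like cells had 45213 control and 45778 mutant UMIs of it, at 2899 CPM (2872 to 2925) and 2964 CPM (2936 to 2991), and 99.8% and 99.9% of these cells had at least 1 UMI. The log2 ratio was 0.03 (0.01 to 0.05). Neurogenic precursor-like cells had 440 CPM (412 to 469) and 400 CPM (376 to 426), and ganglion cell-like cells had 98.2 and 91.1 CPM. The level thus fell by class from progenitors to precursors to ganglion cells in both libraries. *Dkk3* shared this retinal pattern, at 211 CPM (204 to 218) in control and 233 CPM (225 to 240) in mutant progenitors and 107 and 88.3 CPM in neurogenic precursors. It was however as high in amacrine or horizontal-like cells, the interneurons of the retina, at 188 CPM (156 to 225) in control and 224 CPM (191 to 260) in mutant, where the intervals overlap those of the progenitors.

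*Sfrp1* was the inhibitor of the pigmented layer. RPE-like cells stood at 517 CPM (487 to 549) in control and 376 CPM (346 to 409) in mutant, and the class next in order, Schwann or neural crest-like, stood at 291 CPM (233 to 358) and 230 CPM (192 to 273). Retinal progenitor-like cells were far lower, at 49.6 CPM (46.2 to 53.2) and 43.8 CPM (40.5 to 47.2), and mesenchymal classes lay between 41.8 and 93.4 CPM in the control library. To set classes of unlike depth side by side, cells were thinned to 3000 UMIs each, which left out as too shallow 123 of the 255 RPE-like cells in control and 72 of the 152 in mutant. A UMI of *Sfrp1* then remained in 71.97% (63.5 to 79.4) of RPE-like cells in control and 61.3% (49.7 to 71.9) in mutant, in 12.8% and 12.5% of retinal progenitor-like cells and in 0.562% and 0.483% of red blood cell-like cells. Without thinning the RPE-like shares were 62.4% and 65.8%.

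*Sfrp2* was also present in RPE-like cells, at 432 CPM (405 to 462) in control and 262 CPM (237 to 289) in mutant, the third and the fourth class in order. Most *Sfrp2* UMIs were in retinal progenitor-like cells, and RNA of one cell can reach the droplets of others, so the ratio of *Sfrp2* to *Fgf15*, another gene of retinal progenitors, was taken in each class. There were 5.62 (5.49 to 5.76) *Sfrp2* UMIs per *Fgf15* UMI in control progenitors and 3.75 (2.27 to 6.49) in control red blood cell-like cells, but 37.5 (25.0 to 58.8) in control RPE-like cells. The mutant library gave 5.09 (4.98 to 5.21), 6.64 (4.79 to 9.42) and 30.1 (17.4 to 57.0). In *Tfap2b* mesenchyme-like cells the ratio to *Fgf15* was 13.3 (9.01 to 20.5) in control and 8.03 (6.13 to 10.7) in mutant, also above progenitors. Against 2 other genes of the retina the gap between RPE-like and progenitor-like cells was narrower. Per *Dkk3* UMI there were 20.9 (15.4 to 29.1) in RPE-like and 13.7 (13.2 to 14.2) in progenitor-like cells of the control library, and 23.0 (14.2 to 39.9) and 12.7 (12.3 to 13.2) in the mutant library. Per *Fzd5* UMI there were 99.9 (52.4 to 219) and 37.6 (35.5 to 39.8) in control, and 55.9 (26.9 to 140) and 32.5 (30.8 to 34.3) in mutant, where the intervals overlap. Red blood cell-like cells had 3.95 (2.36 to 6.92) per *Dkk3* UMI in control and 6.07 (4.43 to 8.48) in mutant. Per *Fzd5* UMI they had 10.7 (4.95 to 27.6) and 9.62 (6.55 to 14.6). *Tfap2b* mesenchyme-like cells had 3.83 (3.04 to 4.86) and 5.81 (4.59 to 7.42) per *Dkk3* UMI, below progenitors, and 36.0 and 28.4 per *Fzd5* UMI. The part of stray RNA in the *Sfrp2* of RPE-like cells was not tested.

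In *Tfap2b* mesenchyme-like cells *Sfrp2* stood at 55.3 and 57.6 CPM. Red blood cell-like cells had 17.7 CPM (13.95 to 22.2) and 27.1 CPM (24.1 to 30.5), with a UMI of it in 26.2% and 22.7% of cells. Among other classes outside the retina, endothelium-like cells stood at 113 CPM (98.2 to 130) in control and 22.8 CPM (16.3 to 30.9) in mutant, and macrophage-like cells at 79.7 CPM (67.2 to 93.9) and 16.3 CPM (10.9 to 23.4). The level in *Tfap2b* mesenchyme-like cells lay above that of red blood cell-like cells in both libraries. It lay below endothelium-like and macrophage-like cells in the control library and above them in the mutant library.

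*Dkk2* was the inhibitor of the mesenchyme. It was highest in the cluster led by *Col9a3* and *Cldn11*, at 768 CPM (734 to 803) in control and 816 CPM (783 to 851) in mutant, and in *Tfap2b* mesenchyme-like cells, at 759 CPM (738 to 781) and 753 CPM (734 to 771). These classes cannot be ordered in the control library, where their intervals overlap. Mixed periocular mesenchyme-like cells followed at 465 CPM (448 to 483) and 484 CPM (468 to 501). *Aldh1a2*, *Six2* and *Foxf2* mesenchyme-like cells came next at 263 CPM (245 to 283) and 293 CPM (276 to 312) and tendon-like cells at 151 CPM (135 to 168) and 140 CPM (128 to 152), while the cluster led by *Osr2* and *Foxl2* had 36.0 and 37.8 CPM. The level of *Dkk2* therefore divided the mesenchymal classes. Among *Tfap2b* mesenchyme-like cells 96.0% and 96.3% had a UMI of *Dkk2*, against 6.19% and 5.93% of red blood cell-like cells.

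The pathway's negative feedback gene *Axin2*, which is switched on by canonical Wnt signaling in many tissues, was highest in *Tfap2b* mesenchyme-like cells, at 34.4 CPM (30.1 to 39.2) in control and 30 CPM (26.4 to 34.0) in mutant. That is the class where *Dkk2* was also near its highest. RPE-like cells stood at 19.2 CPM (13.7 to 26.2) and 14.1 CPM (8.70 to 21.5), from 40 and 21 UMIs, and came after 3 mesenchymal classes in both libraries, the last 2 of them with overlapping intervals. Retinal progenitor-like cells had only 2.31 CPM (1.62 to 3.20) and 1.49 CPM (0.944 to 2.23), and red blood cell-like cells 0.236 CPM (0.00599 to 1.32) and 0.681 CPM (0.274 to 1.40). *Axin2* was thus lower in retinal progenitor-like cells than in RPE-like or *Tfap2b* mesenchyme-like cells, with intervals apart in both libraries.

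*Lef1*, which encodes a factor that acts with ß-catenin at target genes, was highest in *Aldh1a2*, *Six2* and *Foxf2* mesenchyme-like cells, at 101 CPM (89.5 to 113) in control and 74.5 CPM (65.6 to 84.2) in mutant. *Tfap2b* mesenchyme-like cells came next with 42.9 CPM (38.0 to 48.2) and 38.0 CPM (33.9 to 42.4). *Lef1* and *Axin2* therefore did not follow the same order, since *Axin2* was at 7.54 CPM (4.72 to 11.4) and 5.26 CPM (3.12 to 8.31) in the class where *Lef1* was highest. In RPE-like cells *Lef1* stood at 8.66 CPM (5.13 to 13.7) and 3.35 CPM (1.09 to 7.81).

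*Lgr5*, a receptor for R-spondins and a known marker of Wnt responsive stem cells in other tissues, was found mainly in the retina and in tendon-like cells. Retinal progenitor-like cells held 159 of its 262 control UMIs and 170 of its 346 mutant UMIs, at 10.2 CPM (8.67 to 11.9) and 11.01 CPM (9.41 to 12.8). Tendon-like cells stood at 8.35 CPM (5.03 to 13.04) in control and 16.8 CPM (12.9 to 21.6) in mutant. RPE-like cells had 1 and 3 UMIs, and the share of retinal progenitor-like cells with a UMI was 16.3% and 15.5%, against 0.952% and 0.818% of red blood cell-like cells. Thinned to 3000 UMIs the progenitor shares were 2.56% (1.61 to 3.84) and 3.25% (2.22 to 4.59), with 0 of 178 control red blood cell-like cells, which allows a share of up to 1.69% if 3 cells are taken as the limit of a count of 0.

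Promoter sequences of RefSeq on GRCm38.p6 held 6 of the 10 genes (*Wnt2b*, *Fzd5*, *Sfrp2*, *Dkk2*, *Axin2* and *Lef1*). The 250 bases before each transcription start were searched on both strands for the core letters of the LEF and TCF binding site, CTTTGA and CTTTGT. Either core was found before 2 of the 9 starts of these 6 genes, and before 27.6% of all 32851 promoters in the table. *Dkk2* and *Axin2* are shown because both were high in *Tfap2b* mesenchyme-like cells, and the start of *Lef1* inside the gene because it holds 3 of these cores. Capitals mark the cores, read on the strand of the gene, so that a core of the other strand appears as its reverse complement.
Dkk2 (chr3:132085042-132085291, plus strand): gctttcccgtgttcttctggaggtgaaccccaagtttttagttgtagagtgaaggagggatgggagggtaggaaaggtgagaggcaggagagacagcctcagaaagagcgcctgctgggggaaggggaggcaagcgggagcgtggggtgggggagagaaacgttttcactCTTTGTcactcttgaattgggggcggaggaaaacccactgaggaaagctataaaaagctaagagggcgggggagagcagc
Axin2 (chr11:108920099-108920348, plus strand): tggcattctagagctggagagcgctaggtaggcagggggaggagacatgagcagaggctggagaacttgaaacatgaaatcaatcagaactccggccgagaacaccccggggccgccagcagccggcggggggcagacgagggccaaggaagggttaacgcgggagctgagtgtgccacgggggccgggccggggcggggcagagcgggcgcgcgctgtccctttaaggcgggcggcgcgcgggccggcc
Lef1 (chr3:131156044-131156293, plus strand): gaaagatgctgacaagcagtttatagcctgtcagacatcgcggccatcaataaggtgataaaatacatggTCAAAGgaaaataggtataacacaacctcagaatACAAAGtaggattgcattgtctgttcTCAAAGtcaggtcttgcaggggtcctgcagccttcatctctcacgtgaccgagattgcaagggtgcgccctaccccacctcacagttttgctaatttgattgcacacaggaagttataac
No match shown overlaps another. The core of *Dkk2* began 80 bases before its start, and those of *Lef1* began 180, 146 and 120 bases before. *Axin2*, although a known target, had neither core in this window, which says only that these letters are not there.

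Between the libraries, the comparison asks whether loss of *Myrf* in the eye field goes with a change of Wnt pathway genes in the RPE or its neighbours. Over the 19 classes 105 pairs of gene and class could be compared, of which 14 were past the fold lower and 13 past the fold higher in the mutant library. Over all genes, 7.29% of such pairs were past the fold lower and 5.71% higher. Of the pairs past the fold, 10 lower and 6 higher ones had an interval that left out 0. The share of all genes that meet both limits is not given here, so these counts have no background to be read against.

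In RPE-like cells 7 of the 10 genes could be compared, and 3 were past the fold lower (*Sfrp2*, *Dkk3* and *Lef1*) and 0 higher. Over all 9713 genes compared in this class, 10.7% were past the fold lower and 6.61% higher. The median log2 ratio of the 7 genes was -0.46, beside -0.04 over all genes. *Sfrp2* went from 432 to 262 CPM, a log2 ratio of -0.72 (-0.90 to -0.55). *Sfrp1*, the gene highest in this class, went from 517 to 376 CPM, with a log2 ratio of -0.46 (-0.61 to -0.31) that leaves out 0 but is short of 1.5-fold. Both ratios were smaller among the 107 control and 86 mutant RPE-like cells with at most 5% mitochondrial UMIs, at -0.23 (-0.54 to 0.08) for *Sfrp2* and -0.06 (-0.33 to 0.21) for *Sfrp1*. Among cells of at most 2000 UMIs *Sfrp1* was at 0.40 (-0.39 to 1.16), so its direction was not kept there. The median mitochondrial share was 5.24% in control and 4.81% in mutant RPE-like cells, and its part in these results was not tested.

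The other genes of RPE-like cells rested on few UMIs. *Dkk3* had 43 control and 17 mutant UMIs, with a log2 ratio of -0.81 (-1.76 to -0.02), and *Lef1* had 18 and 5, with a log2 ratio of -1.19 (-3.16 to 0.11). *Dkk3* was at -0.11 (-1.19 to 0.89) in the RPE-like cells of a finer clustering, of resolution 1.6, and at -1.65 (-2.96 to -0.61) among cells with at most 5% mitochondrial UMIs. *Axin2* was at -0.42 (-1.29 to 0.34), *Wnt5a* at -0.06 (-0.55 to 0.40) and *Dkk2* at 0.44 (-0.22 to 1.11), all with intervals that hold 0. The direction of *Dkk2* turned with the cells taken, to -1.55 (-3.18 to -0.30) at the mitochondrial limit of 5% and to 1.96 (1.08 to 2.97) where cells were classed one by one. Markers of other cells also differed between the libraries, some lower and some higher in the mutant library. The 9 retinal progenitor markers summed to 853 CPM in control and 753 CPM in mutant RPE-like cells with all 9 detected in both, the 9 ganglion cell markers to 182 and 43.5 CPM, with 9 and 8 detected, and the 7 melanocyte markers to 9446 and 7347 CPM, with 6 and 5 detected. The melanocyte list shares *Pmel* with the 10 RPE markers, which summed to 10602 and 6900 CPM. The 8 neurogenic precursor markers summed to 272 and 522 CPM with 7 detected in either library. The 8 haemoglobin and other red blood cell markers summed to 979 and 1377 CPM, with 7 detected in either library. The part of these markers in the differences was not tested.

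**Figure D2:**
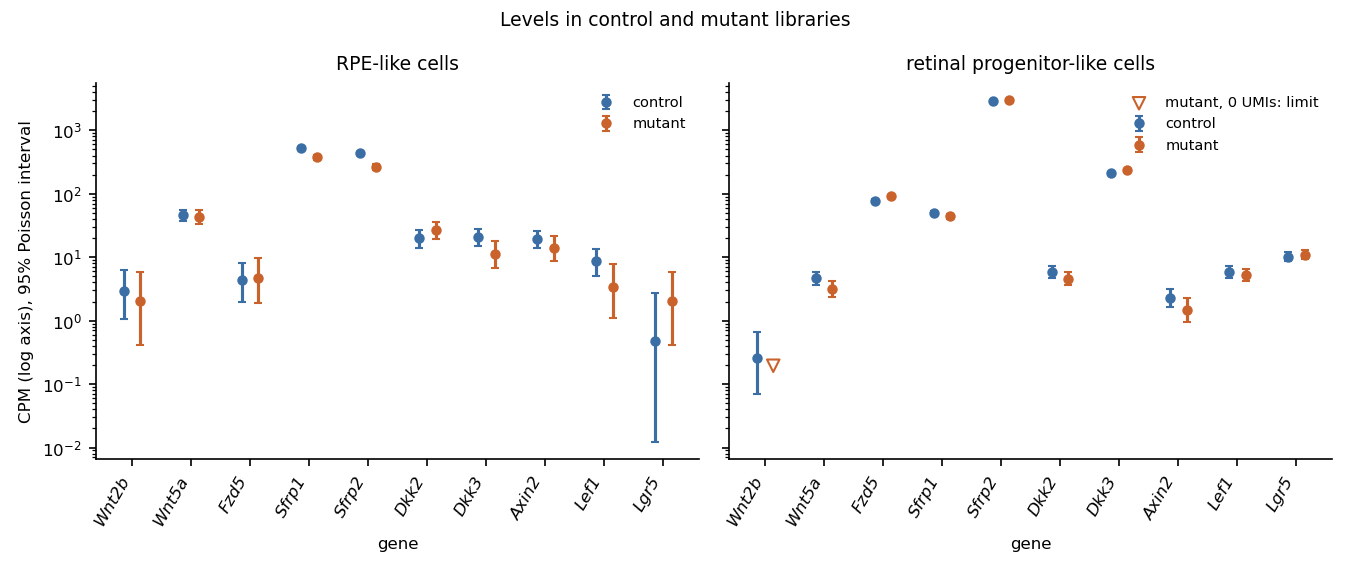
Levels of the 10 genes in RPE-like (left) and retinal progenitor-like cells (right) in CPM on a log axis, control in blue and mutant in orange, with 95% Poisson intervals for counting error, and an open triangle at the limit that 0 UMIs allow. In RPE-like cells *Sfrp1* and *Sfrp2* lie lower in the mutant library with intervals apart, at 376 against 517 CPM and 262 against 432 CPM, and in retinal progenitor-like cells *Sfrp2* (2899 and 2964 CPM) and *Dkk3* (211 and 233 CPM) lie close together.

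In retinal progenitor-like cells 9 of the 10 genes were compared, 1 was past the fold lower (*Axin2*) and 0 higher, beside 3.38% lower and 1.89% higher over all genes. *Axin2* rested on 36 and 23 UMIs, with a log2 ratio of -0.61 (-1.45 to 0.16) that holds 0. The retinal genes with high counts moved little, as given above for *Sfrp2* and *Fzd5* and with a log2 ratio of 0.14 (0.07 to 0.21) for *Dkk3*. *Sfrp1* was at -0.18 (-0.33 to -0.03), *Wnt5a* at -0.55 (-1.11 to -0.02) and *Lgr5* at 0.11 (-0.21 to 0.43). The upper end of the interval for *Sfrp2* was 0.05 on the log2 scale.

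In *Tfap2b* mesenchyme-like cells 9 of the 10 genes were compared and 0 were past the fold in either direction, beside 4.32% lower and 2.38% higher over all genes. *Dkk2* had a log2 ratio of -0.01 (-0.07 to 0.04), *Wnt5a* of 0.00 (-0.21 to 0.22) and *Axin2* of -0.20 (-0.46 to 0.07). *Dkk3*, low in this class at 14.4 and 9.92 CPM, had a ratio of -0.54 (-0.99 to -0.10) that left out 0. In *Aldh1a2*, *Six2* and *Foxf2* mesenchyme-like cells 7 were compared and 0 were past the fold, beside 6.13% lower and 3.85% higher over all genes. *Lef1* was lower there without reaching the fold, at a log2 ratio of -0.43 (-0.68 to -0.19), and stayed lower in each of 16 alternatives, at -0.82 to -0.37. *Foxf2*, which marks this class, went from 63.4 to 41.8 CPM there, while the 4 genes of its marker list summed to 419 CPM in control and 437 CPM in mutant, and their part in the result was not tested. In 3 other mesenchymal classes some genes differed. *Axin2* was past the fold lower in the *Osr2* and *Foxl2* cluster, at -0.90 (-1.89 to -0.02) from 29 and 17 UMIs, and *Dkk3* in mixed periocular mesenchyme-like cells, at -0.59 (-1.15 to -0.05) from 65 and 51 UMIs, beside 8.72% and 5.31% of all genes lower in those classes. *Sfrp2* was short of the fold in the *Col9a3* and *Cldn11* cluster, at -0.51 (-0.85 to -0.19).

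Tendon-like cells differed in *Lgr5*. Of 8 genes compared in this class, 1 was past the fold higher and 0 lower, beside 4.06% higher and 6.45% lower over all genes. *Lgr5* had 19 control and 61 mutant UMIs, a log2 ratio of 0.96 (0.25 to 1.83), and stayed at 0.91 to 1.25 over 16 alternatives. It was found in 8.38% (4.77 to 13.4) of control and 12.97% (9.47 to 17.2) of mutant tendon-like cells, and 1 control cell held 21.1% of the control UMIs. The 4 tendon markers summed to 1319 and 1141 CPM, with 3 of them detected in either library and *Tnmd* at 0. Red blood cell markers summed to 448 and 889 CPM in this class, and their part in the result was not tested. Of all kept cells, 3.28% in control and 5.01% in mutant were tendon-like.

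**Figure D3:**
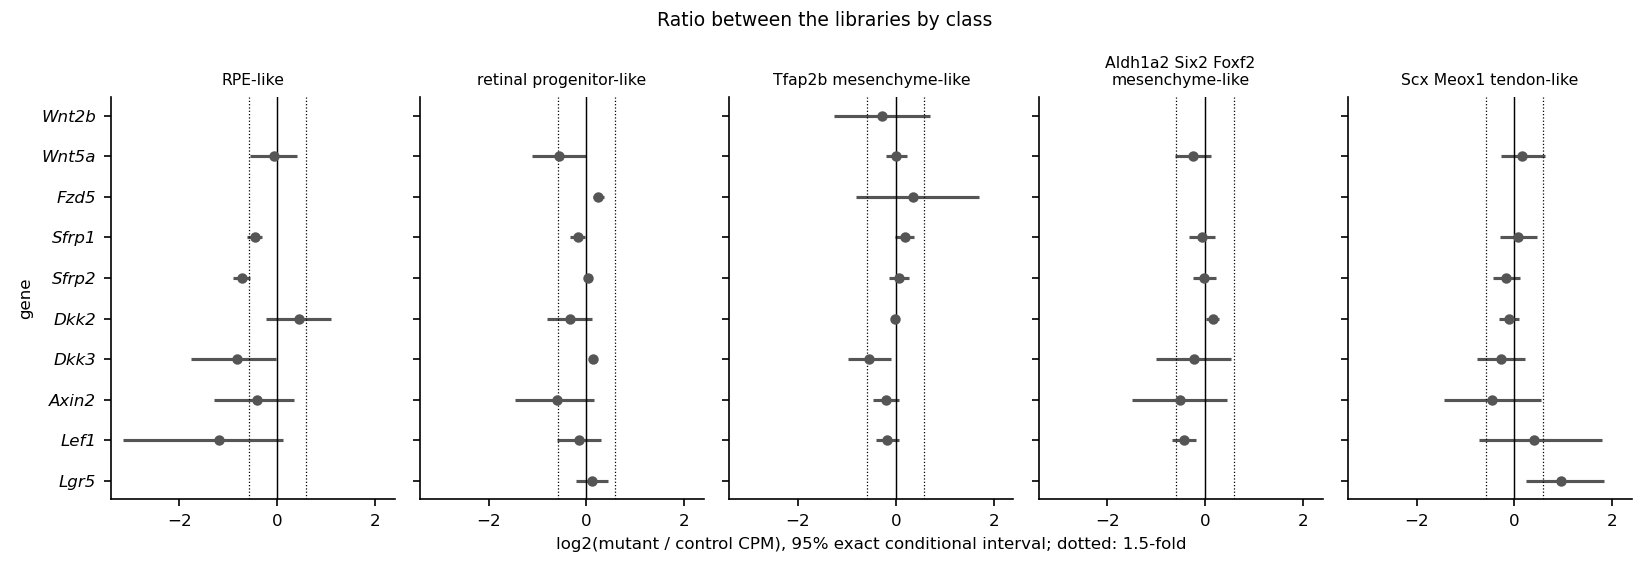
Log2 ratio of mutant over control CPM for each gene with at least 20 UMIs, in 5 classes (panels), with 95% exact conditional intervals for counting error and dotted lines at 1.5-fold. Points past the dotted lines are *Sfrp2*, *Dkk3* and *Lef1* in RPE-like cells, *Axin2* in retinal progenitor-like cells and *Lgr5* in tendon-like cells.

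The 81 other genes of the pathway, listed by role, were read in the same way. In RPE-like cells 40 could be compared, of which 6 were past the fold lower and 2 higher, beside 10.7% and 6.61% of all genes. Over these 40 genes the log2 ratio had a median of -0.15. Of 9 receptors 3 were past the fold lower, and of these *Fzd4*, a receptor that also serves the ligand norrin in vessel growth, had the most uneven counts. It had 68 control and 14 mutant UMIs, at 32.7 CPM (25.4 to 41.5) and 9.37 CPM (5.13 to 15.7), a log2 ratio of -1.72 (-2.75 to -0.96). *Fzd1* went from 33.2 to 19.4 CPM, a log2 ratio of -0.75 (-1.45 to -0.13), but stood at 0.32 (-0.81 to 1.66) among cells with at most 5% mitochondrial UMIs. *Fzd4* was lower in each of 16 alternatives, at -2.71 to -0.69.

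Other roles of the pathway in RPE-like cells gave single genes. *Vangl2*, a membrane protein of planar cell polarity listed with the feedback and target genes, went from 29.3 to 16.1 CPM (log2 ratio -0.83, -1.61 to -0.17), and *Bambi*, a pseudoreceptor of the BMP pathway listed with it, went from 11.1 to 19.4 CPM (0.80, -0.03 to 1.67). Of the 17 genes of signal transduction 0 were past the fold in either direction, and the most abundant of these, *Csnk1a1*, a kinase of the ß-catenin destruction complex, stood at 185 and 194 CPM. The inhibitor *Sostdc1*, which binds LRP6 and BMPs, stood at 201 CPM in control and 209 CPM in mutant RPE-like cells, against 1.38 to 5.74 CPM in retinal progenitor-like, *Tfap2b*, *Aldh1a2* and tendon-like cells of either library. Surface ectoderm-like cells were the other class with a high level of it, at 169 and 115 CPM. *Ryk*, a receptor for WNT5A, was broad, at 81.3 and 89.7 CPM in RPE-like and 116 and 126 CPM in *Tfap2b* mesenchyme-like cells. *Rspo1*, an R-spondin that strengthens Wnt signaling, was highest in *Tfap2b* mesenchyme-like cells, at 202 and 171 CPM, followed by the *Col9a3* and *Cldn11* cluster at 157 and 146 CPM and mixed periocular mesenchyme-like cells at 113 and 105 CPM, with 3.37 and 4.02 CPM in RPE-like cells.

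In retinal progenitor-like cells 53 of the 81 genes could be compared, of which 3 were past the fold lower and 1 higher, beside 3.38% and 1.89% of all genes. The log2 ratio of these genes had a median of -0.13. *Sostdc1* was among those lower, at -0.68 (-1.48 to 0.05) from 41 and 25 UMIs. The cell cycle gene *Ccnd1*, the target gene with the most UMIs (40456 over all kept cells), stood at 689 CPM in control and 797 CPM in mutant progenitors and at 67.3 and 67.6 CPM in RPE-like cells. In *Tfap2b* mesenchyme-like cells 59 could be compared, with 0 past the fold lower and 4 higher, beside 4.32% and 2.38% of all genes. In *Aldh1a2*, *Six2* and *Foxf2* mesenchyme-like cells 49 could be compared, with 0 lower and 2 higher, beside 6.13% and 3.85%. In tendon-like cells 47 could be compared, with 5 lower and 1 higher, beside 6.45% and 4.06%.

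**Figure D4:**
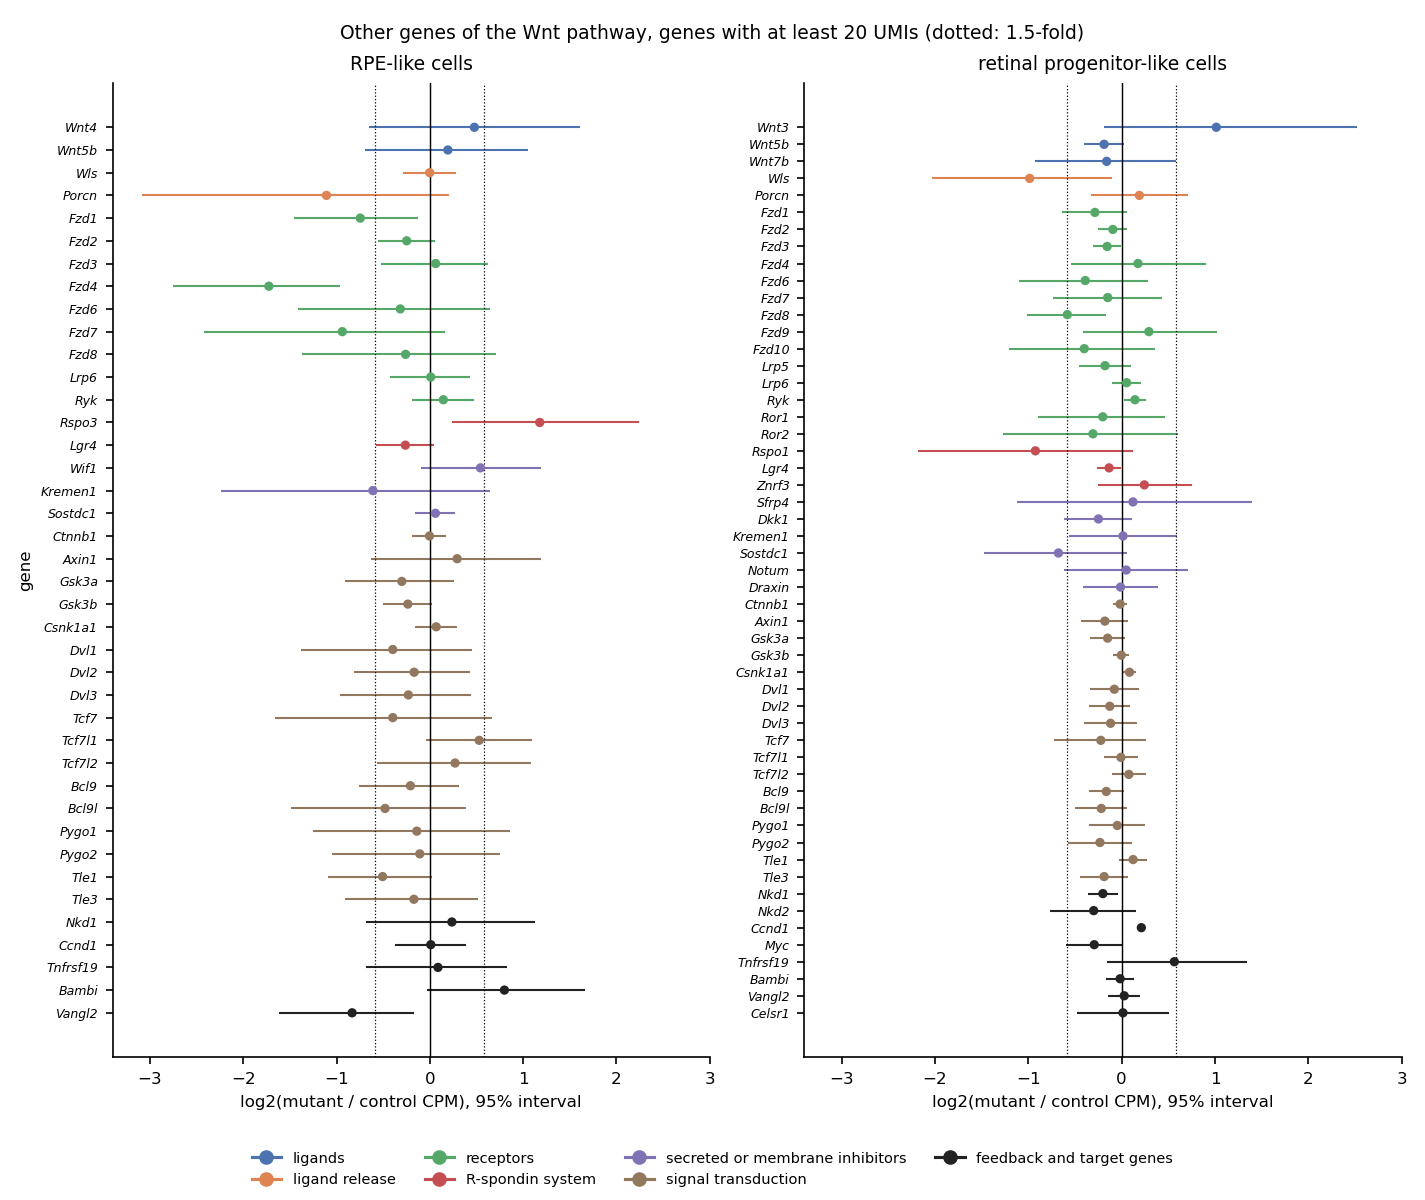
Log2 ratio of mutant over control CPM for other Wnt pathway genes with at least 20 UMIs in RPE-like (left) and retinal progenitor-like cells (right), colored by role, with 95% exact conditional intervals for counting error and dotted lines at 1.5-fold. In RPE-like cells *Fzd4* lies farthest to the left at -1.72, and in retinal progenitor-like cells most points lie within the dotted lines.

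Within the retina, several of the genes differed between dorsal and ventral progenitors. Retinal progenitor-like cells were split by whether they had more UMIs of 4 dorsal or of 4 ventral marker genes, which gave 281 dorsal and 533 ventral control cells and 360 and 521 mutant cells. Neither side led in 52 control and 79 mutant cells, and 139 and 197 cells lay within 1 UMI of the line, so the sides are ranges and not types. *Dkk3* was higher dorsally, at 264 CPM (250 to 279) against 185 CPM (177 to 194) in control and 275 CPM (262 to 290) against 200 CPM (190 to 209) in mutant. *Sfrp2* was also higher dorsally, at 3230 against 2724 CPM in control and 3219 against 2744 CPM in mutant. *Sfrp1* followed, at 56.9 against 45.7 CPM in control, a log2 ratio of dorsal over ventral of 0.32 (0.10 to 0.53), and 56.3 against 35.6 CPM in mutant, a log2 ratio of 0.66 (0.43 to 0.89). *Dkk3*, *Sfrp2* and *Sfrp1* were thus higher on the dorsal side in both libraries, while *Dkk2*, given below, was lower there in the control library.

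The genes read as targets were too rare to place with the same precision. *Axin2* had 15 dorsal and 19 ventral control UMIs, a log2 ratio of 0.69 (-0.41 to 1.73), and 15 and 8 mutant UMIs, a log2 ratio of 1.53 (0.28 to 3.05). *Lgr5* had a ratio of -0.22 (-0.77 to 0.28) in control and -0.38 (-0.91 to 0.10) in mutant, and *Lef1* of 0.06 (-0.66 to 0.71) and 0.07 (-0.63 to 0.72). *Fzd5* was even in control (0.00, -0.19 to 0.18) and slightly higher ventrally in mutant (-0.18, -0.35 to -0.01). *Dkk2* was lower dorsally in control, at -1.17 (-2.16 to -0.43) from 15 and 72 UMIs, and stood at 0.27 (-0.50 to 1.00) in mutant. Over all retinal progenitor-like cells *Dkk2* stood at 5.83 CPM in control and 4.60 CPM in mutant. Red blood cell-like cells had 5.68 and 5.64 CPM of it, and the part of stray RNA in this split was not tested. Whether the libraries differed in these splits was not tested.

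**Figure D5:**
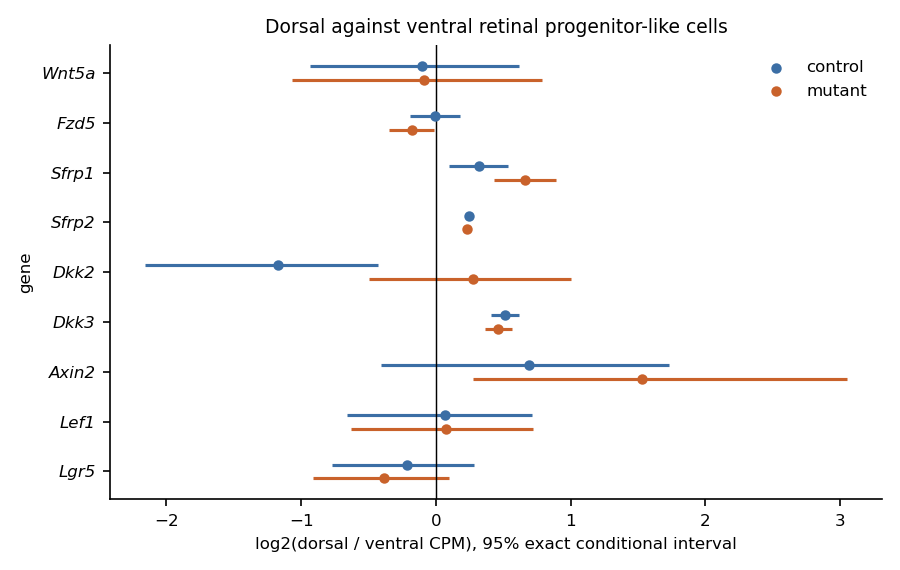
Log2 ratio of dorsal over ventral CPM in retinal progenitor-like cells for 9 of the 10 genes (*Wnt2b* had too few UMIs), control in blue and mutant in orange, with 95% exact conditional intervals for counting error. *Dkk3*, *Sfrp2* and *Sfrp1* lie to the right of 0 in both libraries, at 0.51, 0.25 and 0.32 in control and 0.46, 0.23 and 0.66 in mutant.

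The progenitor class was made of 2 clusters, 1 of them led by genes of dividing cells such as *Aurkb* and *Prc1*, together with *Fgf15* (359 control and 378 mutant cells). *Lgr5* was higher in that cluster than in the other, at 12.9 against 7.62 CPM in control, a log2 ratio of 0.75 (0.28 to 1.25), and 15.1 against 7.42 CPM in mutant, a log2 ratio of 1.01 (0.56 to 1.5). *Sfrp2* was slightly higher there as well, at 3162 against 2648 CPM in control and 3131 against 2817 CPM in mutant. *Axin2* was at 3.42 against 1.25 CPM in control, from 26 and 10 UMIs, and at 1.25 against 1.70 CPM in mutant, from 9 and 14. Clusters were drawn from the same cells, so these values are a description.

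Across the 38 points that 19 classes in 2 libraries give, the genes fell into groups of likeness, measured as Pearson's r of log2(CPM + 1). Points of 1 library share its preparation and points of 1 class its cells, so r is a description only. Among the 45 pairs of the 10 genes the most alike were *Fzd5* and *Sfrp2* (r = 0.74), *Wnt2b* and *Axin2* (r = 0.73) and *Sfrp2* and *Dkk3* (r = 0.71). *Dkk2* and *Axin2* came to r = 0.67.

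Among all genes with at least 100 UMIs, the 3 most like each gene were taken. Nearest to *Fzd5* were *Fgf15* (r = 0.82), *Rax* (r = 0.82), a homeobox gene of retinal progenitors, and *Vax2os* (r = 0.81), and nearest to *Dkk3* were *Srgap3* (r = 0.86), *Fgf15* (r = 0.86) and *Hmx1* (r = 0.85). Nearest to *Sfrp2* were *Cspg5* (r = 0.88) and *Ildr2* (r = 0.84), whose highest control levels were in RPE-like cells, at 111 and 35.6 CPM. Nearest to *Sfrp1* were *Il1rapl1* (r = 0.89), *Ptpn13* (r = 0.88) and *Cpt1c* (r = 0.87). *Lgr5* was most like *Kcnk1* (r = 0.74), *Crhbp* (r = 0.73) and *Dio3* (r = 0.71), all highest in progenitors.

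In the mesenchymal group, *Dkk2* was most like *Col12a1* (r = 0.91), *Fbln2* (r = 0.89) and *9430024E24Rik* (r = 0.87), and *Wnt5a* most like *Scn2b* (r = 0.87), *Vasn* (r = 0.86) and *Tmem26* (r = 0.86). *Axin2* was most like *Spin2c* (r = 0.81), *Tpd52l1* (r = 0.80) and the receptor gene *Fzd1* (r = 0.80), and *Lef1* most like *Tle3* (r = 0.80), which encodes a corepressor that binds LEF and TCF factors, *Foxf2* (r = 0.75) and *Prss23* (r = 0.72). *Foxf2* is a marker that named the class, so its likeness to *Lef1* rests on that class. *Wnt2b* was most like *Adora2b* (r = 0.81), *Anpep* (r = 0.81) and *Cpz* (r = 0.80), on counts near 0 in most classes.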

How the data were processed

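Cells of e13.5 eye cups were profiled on the 10x Genomics platform in 2 libraries. The authors deposited UMI counts per gene and barcode for called cells, without normalization. The submitters' processing notes name Cell Ranger 7.1.0, Seurat 4.1.1 and mm10, and whether intronic reads were counted is not given in the sources used here. Kept cells had at least 200 genes and at most 15% mitochondrial UMIs, and doublets marked by Scrublet in scanpy 1.11.5 (68 control and 65 mutant) were removed. The study's stated ceiling of 2000 UMIs was run only as an alternative, since 1181 control and 1099 mutant cells lie under it. Cells were integrated and clustered in Seurat 5.3.0 on 1978 of 2000 variable features, without the Wnt pathway genes, with 30 components and resolution 0.8. Clusters were named from marker lists by limits chosen once the clusters were known. Members and lists were chosen with earlier results of these data known. The genes named are the members in every class, the 3 genes most like each, the pathway genes past the fold with at least 50 UMIs in RPE-like or retinal progenitor-like cells, and the pathway gene of each role with the most UMIs. One gene that this rule names is not reported here. UMIs were summed by class and intervals computed with scipy 1.17.1. Ratios were tested on simulated counts of 9713 genes in RPE-like cells, 200 of them changed. Intervals held the true value for 95.0% of the changed genes and 96.0% of the others. Coverage in the real counts, where a single cell can hold many of a gene's UMIs, was not tested. A count of 0 allows up to 3 counts.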

Additional observations from a re-analysis of the deposited data

Results flagged for a closer look

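*Sfrp2* is listed because its ratio between the libraries went in opposite directions in different classes, past 1.5-fold and with intervals that left out 0. It was lower in the mutant library in RPE-like (log2 ratio -0.72), endothelium-like (-2.29) and macrophage-like cells (-2.25). It was higher in amacrine or horizontal-like (1.02), photoreceptor precursor-like (1.66), surface ectoderm-like (2.89) and red blood cell-like cells (0.60). In red blood cell-like cells 35.1% of all genes were past the fold higher, and the median log2 ratio of all genes there was 0.39. The difference between the classes was not tested. In most of these classes the counts rested on few cells. A single cell held 36.2% of the mutant UMIs in surface ectoderm-like, 69.0% in photoreceptor precursor-like and 34.2% in amacrine or horizontal-like cells, and 29.1% and 25.2% of the control UMIs in endothelium-like and macrophage-like cells. Without the top cell of each library the log2 ratios were 2.47 (1.83 to 3.30) in surface ectoderm-like, 0.52 (-0.54 to 1.66) in photoreceptor precursor-like, 0.60 (-0.07 to 1.34) in amacrine or horizontal-like, -2.0 (-2.60 to -1.49) in endothelium-like, -1.98 (-2.70 to -1.40) in macrophage-like, 0.36 (-0.02 to 0.79) in red blood cell-like and -0.81 (-0.997 to -0.63) in RPE-like cells. The share of surface ectoderm-like cells with a UMI was 27.6% (16.7 to 40.9) in control and 49.2% (36.4 to 62.1) in mutant, from 58 and 63 cells.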

How the results depend on the processing

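No paired analysis was possible because each genotype was 1 library. Beyond the classes that a setting leaves out, the cause of the changes below was not tested. The 14 pairs of gene and class past the fold lower and the 13 higher became 1 and 0 among cells of at most 2000 UMIs, 0 and 1 with means of log values, 9 and 6 with a minimum of 50 UMIs, 39 and 32 with no minimum and 5 and 5 at 2-fold, and the higher ones became 4 among cells of at most 20000 UMIs. For the changed settings here and below, the pairs compared and the share of all genes past the fold are not given. The counts therefore show how the calls depend on the settings, and not more or fewer differences of the Wnt genes. The class of the highest level over both libraries was kept by 1 of 10 genes among cells of at most 2000 UMIs and by 5 of 10 where cells were classed one by one. Only 3 retinal progenitor-like cells of either library lie under that ceiling, and 10 control and 1 mutant *Tfap2b* mesenchyme-like cells. With a minimum of 20 cells per class, such classes could not be kept. Classing one by one had no *Osr2* and *Foxl2* or *Col9a3* and *Cldn11* class, the highest for *Wnt5a* and *Dkk2*. In RPE-like cells the median log2 ratio of the other pathway genes, -0.15, became -0.040 at 20000 UMIs, -0.020 at resolution 1.6, 0.058 with cells classed one by one, -0.0035 with a minimum of 50 UMIs and -0.0016 with no minimum. The 6 lower and 2 higher pathway genes there became 1 and 0 at 2000 UMIs, 3 and 0 at the mitochondrial limit of 5%, 3 and 1 with a minimum of 50 UMIs, 11 and 14 with no minimum and 2 and 1 at 2-fold, and the higher ones became 4 at 20000 UMIs and 5 at resolution 1.6. In retinal progenitor-like cells the median of -0.13 became -0.026 with cells classed one by one. The 3 lower and 1 higher pathway genes became 1 and 0 with a minimum of 50 UMIs and 14 and 7 with no minimum, the lower ones 0 at 2-fold, and the higher ones 3 at 20000 UMIs, 2 at the mitochondrial limit and 3 with cells classed one by one. *Sfrp2* went to 0.019 in endothelium-like and to -0.10 in red blood cell-like cells at 2000 UMIs, and *Fzd1* went to 0.32 in RPE-like cells at the mitochondrial limit. Removing the barcodes found in both libraries, or taking the shallow retinal clusters as progenitors, both chosen after seeing the data, left each of 110 ratios within its interval.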

Other observations

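The 5 unnamed clusters held 8.97% of the control and 8.66% of the mutant UMIs of *Sfrp2*, and 11.7% and 8.50% of those of *Fzd5*. In a shallow cluster of 681 control and 583 mutant cells with medians of 732 and 749 UMIs per cell, *Sfrp2* stood at 1439 CPM (1357 to 1525) and 827 CPM (767 to 891), *Dkk2* at 234 CPM (201 to 270) and 202 CPM (173 to 235), and *Dkk3* at 256 CPM (222 to 294) and 164 CPM (137 to 194). Genes of the retina and of the mesenchyme were thus both high in it. A smaller cluster of 60 control and 63 mutant cells led by *Cxcl14* had *Sfrp1* at 318 CPM (211 to 459) and 289 CPM (187 to 427).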
